A study of Mus musculus with 2 samples.

Results

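The genes described here encode the enzymes that place or remove acetyl and methyl groups on histones and methyl groups on DNA, together with close partners of these enzymes. They were chosen by gene symbol: the Hdac and Sirt deacetylases, the Kdm demethylases, the Kmt2, Setd and Suv39h methyltransferases, the Kat acetyltransferases, the Dnmt and Tet genes, and Ezh1, Ezh2, Eed, Suz12, Ehmt1, Ehmt2, Crebbp, Ep300, Dot1l and Uhrf1, with the Y-linked Kdm5d left out. The choice was made with earlier results of these data known. The rule found 184 probe sets with a single gene symbol, which represent 76 genes of the 18193 named genes on the array. The study measured RNA of mouse 5cc7 T cells, which are specific for a moth cytochrome c peptide (MCC in the labels), 5 days after the cells were stimulated with that peptide in culture. The labels call the cells blasts, a name for activated T cells that have grown and divide. They give no strain, age, genotype beyond the name 5cc7, or further agent. The data are 2 Affymetrix mouse 430 2.0 arrays of this 1 group, set 1 and set 2, with no resting, unstimulated or other control group. Whether the arrays hold separate cultures or 1 RNA is not stated, so their spread may be technical only, and nothing below compares activated with resting cells.

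Histones are the proteins that DNA is wound around in the nucleus, and acetyl or methyl groups on their tails, like methyl groups on cytosine, affect how readily a gene is transcribed. Acetyltransferases and methyltransferases write these marks, and deacetylases, demethylases and the Tet enzymes remove them. In T cells these enzymes are known for their part in silencing or opening cytokine and lineage genes as a naive cell becomes an effector cell, and a dividing cell must copy its DNA methylation at each round of replication.

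Whether a gene was detected was judged against a background bound. It was set at the 95th percentile of 46 probe sets for 32 genes of liver, eye, pancreas and kidney, and came to 53.4 on set 1 and 55.5 on set 2. Above background means here that a probe set passed the bound of set 1 and of set 2, and for a gene that 1 or more of its probe sets passed. The level of a gene is that of its brightest probe set, in the deposited linear intensity. Probes differ in how strongly they bind, so values of different genes do not rank their transcripts.

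Most of these genes were detected. Of the 76 genes, 67 (88.2%) were above background, where 47.5% of all named genes were, and of their 184 probe sets 121 (65.8%) were, where 42.0% of all named probe sets were. Genes with more probe sets have more chances of a call, and these genes had 2.42 probe sets on average against 1.92 for all named genes. The share was still higher when genes were grouped by 1, 2, and 3 or more probe sets, the last of which does not match the numbers exactly. With 1 probe set 21 of 26 of these genes (80.8%) were above background, against 32.1% of all named genes. With 2 it was 20 of 21 (95.2%) against 55.3%, and with 3 or more 26 of 29 (89.7%) against 71.6%. The 9 genes not above background were Dnmt3l, Hdac9, Kdm4d, Kdm8, Setd4, Sirt4, Suv39h2, Tet1 and Tet3. No test of these shares was made, since 1 group has no contrast and genes are not replicates.

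**Figure D1:**
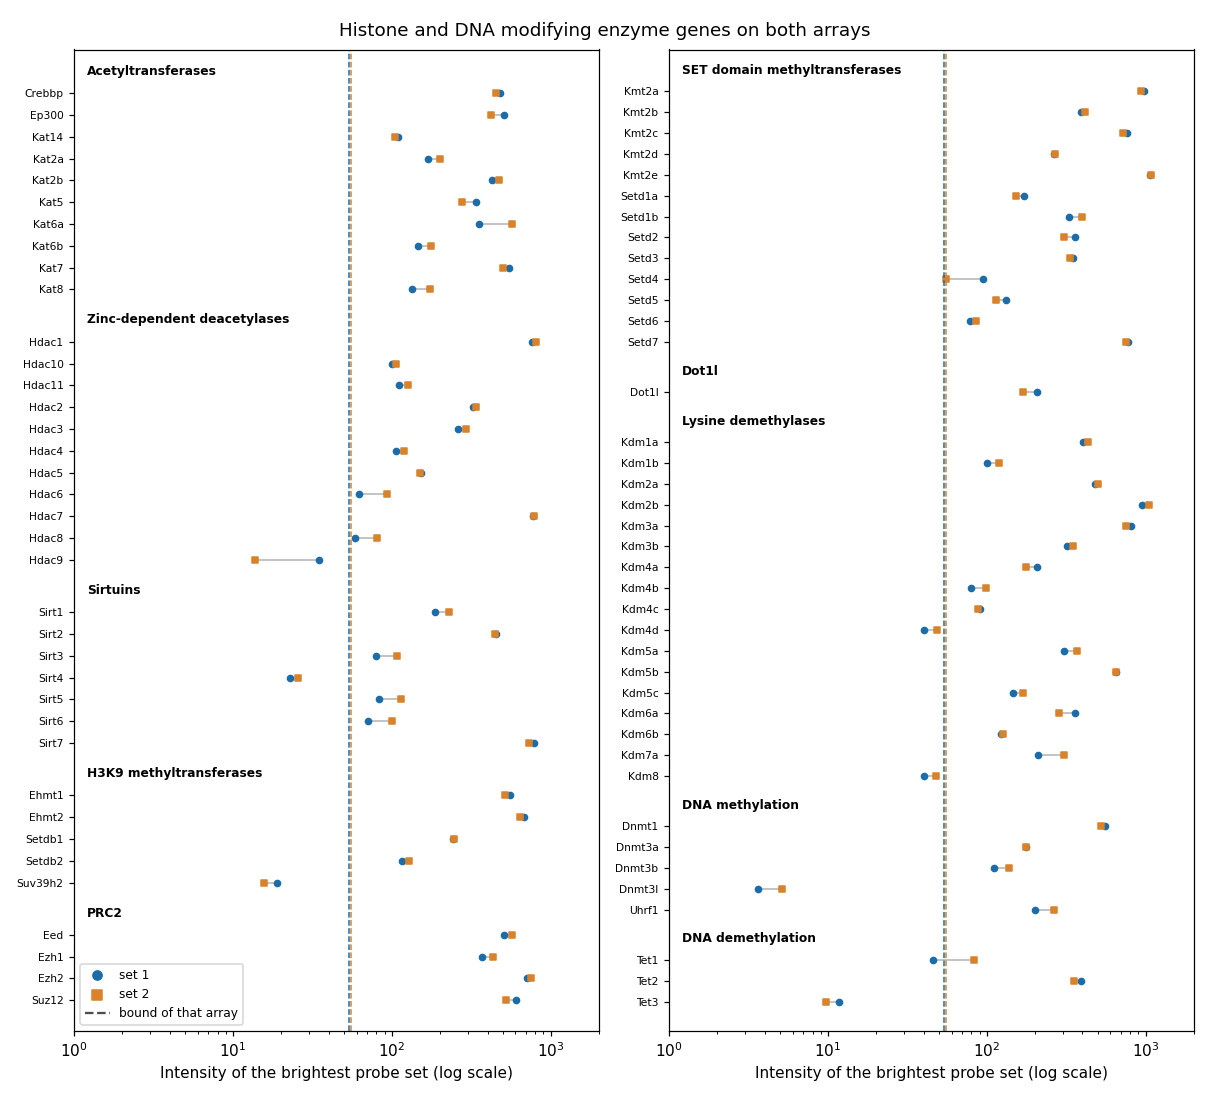
Intensity (log scale) of the brightest probe set of each of the 76 genes, by enzyme class, with set 1 as circles and set 2 as squares and the bound of each array (53.4 and 55.5) as dashed lines. Most genes lie right of both lines with their symbols close together, and the genes to the left of at least 1 line are those not above background, such as Dnmt3l, Tet3 and Suv39h2.

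The labelled cell type was checked by marker genes. All 7 measured T cell markers were above background, with mean intensities from 839 for Cd5 to 4671 for Cd3d. All 6 proliferation markers were too, Mki67 at 845 on set 1 and 751 on set 2. Of 4 B cell markers 3 were above background, Cd79a, Cd79b and Ms4a1, and the summed level of the 4 was 728 on set 1 and 682 on set 2. Of 6 macrophage and dendritic cell markers only Csf1r was, with a summed level of the 6 of 199 on set 1 and 349 on set 2, and C1qa read 2.7 on set 1 and 2.1 on set 2. Ncr1 of NK cells and Hba-a1 of red cells were not above background. The part of RNA from B cells or other cells in the values below was not tested. In such bulk RNA, fewer cells with a transcript and less of it per cell cannot be told apart.

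The genes that maintain DNA methylation were detected with all their probe sets. Dnmt1, the enzyme that copies methylation onto newly made DNA, read 555 on set 1 and 526 on set 2, and all 3 of its probe sets were above background. Its dimmer probe sets are of the _x_at kind, which can bind transcripts of more than 1 gene. The dimmest read 66.8 on set 1 and 69 on set 2, little above the bound. Uhrf1, which recognises hemimethylated DNA and brings Dnmt1 to it, read 201 on set 1 and 267 on set 2, with both probe sets above background. The values of Uhrf1 were further apart than those of Dnmt1, and its other probe set differed the other way, at 145 on set 1 and 104 on set 2. The de novo enzymes, which methylate unmarked DNA, were detected on fewer of their probe sets. Dnmt3a read 175 on set 1 and 176 on set 2, but only 1 of its 5 probe sets exceeded the bound on both arrays. Dnmt3b read 111 on set 1 and 137 on set 2, and its second probe set, at 59.3 on set 1 and 49.2 on set 2, passed on set 1 alone. Dnmt3l, a partner without catalytic activity that is known from germ cells and embryonic stem cells, was not above background at 3.6 on set 1 and 5.1 on set 2.

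The promoters of these genes were taken from RefSeq (GRCm38.p6) as windows of 300 bases, 250 before and 50 after a start site. They are shown because DNA methylation acts on CG dinucleotides, and because the genes of this class differ in how many their promoters hold. In the following 2 windows CG is in capitals. The window of Dnmt3b, at chr2:153649199-153649498 on the plus strand, holds 30, and that of Dnmt3l with the most, at chr10:78042037-78042336 on the plus strand, holds 6.
Dnmt3b: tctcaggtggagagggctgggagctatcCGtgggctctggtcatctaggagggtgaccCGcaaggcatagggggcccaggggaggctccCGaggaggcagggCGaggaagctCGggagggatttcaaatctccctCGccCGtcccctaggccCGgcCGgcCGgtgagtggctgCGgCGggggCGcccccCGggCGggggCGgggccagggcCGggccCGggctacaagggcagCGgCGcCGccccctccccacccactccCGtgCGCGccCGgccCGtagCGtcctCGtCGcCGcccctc
Dnmt3l: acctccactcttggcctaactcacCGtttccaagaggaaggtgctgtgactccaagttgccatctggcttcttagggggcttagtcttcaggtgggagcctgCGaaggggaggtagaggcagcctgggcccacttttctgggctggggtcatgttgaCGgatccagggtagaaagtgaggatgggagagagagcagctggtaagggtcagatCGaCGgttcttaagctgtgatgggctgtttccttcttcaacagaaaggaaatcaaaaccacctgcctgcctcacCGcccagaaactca
Windows of Dnmt1 at chr9:20952574-20952873 on the minus strand and Uhrf1 at chr17:56304063-56304362 on the plus strand follow with capitals marking another feature, matches to the E2F motif. E2F factors drive genes of the S phase, and the motif was searched as TTTCCCGC, TTTCGCGC, TTTGCCGC and TTTGGCGC on both strands, each of which holds a CG.
Dnmt1: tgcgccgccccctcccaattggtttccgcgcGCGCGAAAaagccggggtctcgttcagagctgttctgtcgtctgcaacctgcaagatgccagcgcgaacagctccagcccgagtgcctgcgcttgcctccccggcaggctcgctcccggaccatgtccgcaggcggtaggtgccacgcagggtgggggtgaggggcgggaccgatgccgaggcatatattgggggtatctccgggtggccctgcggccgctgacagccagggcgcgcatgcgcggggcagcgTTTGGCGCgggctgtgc
Uhrf1: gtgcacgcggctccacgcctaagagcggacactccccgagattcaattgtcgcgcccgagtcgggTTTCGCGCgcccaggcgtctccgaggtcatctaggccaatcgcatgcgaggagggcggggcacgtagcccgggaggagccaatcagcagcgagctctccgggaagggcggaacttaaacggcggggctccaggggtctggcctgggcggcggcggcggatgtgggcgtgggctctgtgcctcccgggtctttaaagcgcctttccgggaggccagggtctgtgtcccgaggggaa
The Dnmt1 window, 1 of 3 for the gene, has 2 matches, and the Uhrf1 window, 1 of 2, has 1. Both were picked for having the most matches, and the other windows of these genes hold none. Of all 32851 windows 2.26% have any, a share that picked windows cannot be set against. A match is a description of the letters and not a binding site.

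Of the Tet enzymes, which oxidise methylated cytosine as a step of its removal, only Tet2 was above background. It read 391 on set 1 and 352 on set 2 and its second probe set 149.6 on set 1 and 187 on set 2. None of the 4 probe sets of Tet1 passed on both arrays, the brightest reading 45.8 on set 1 and 82.5 on set 2, above the bound on set 2 alone. Tet3 was measured by 1 probe set, which read 11.7 on set 1 and 9.7 on set 2. The Tet class, with 1 of 3 genes detected, was the only class below the 47.5% of all named genes, but it holds few genes. Judged on set 1 alone 1 of 3 passed, where 50.0% of all named genes did, and on set 2 alone 2 of 3, where 50.1% did.

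All 4 genes of Polycomb repressive complex 2, which methylates lysine 27 of histone H3 and silences developmental genes, were above background. Ezh2, the catalytic subunit of dividing cells, read 712 on set 1 and 749 on set 2 on its 1 probe set. Ezh1, the alternative catalytic subunit known from resting cells, read 368 on set 1 and 434 on set 2, and 2 of its 4 probe sets were above background. The other 2 did not exceed 21.4 on either array. Eed, which binds the finished mark, read 511 on set 1 and 572 on set 2, and Suz12, which holds the complex together, read 608 on set 1 and 520 on set 2. The windows of Ezh2 at chr6:47594981-47595280 on the minus strand and Suz12 at chr11:79992856-79993155 on the plus strand each held 1 match to the E2F motif, in capitals here.
Ezh2: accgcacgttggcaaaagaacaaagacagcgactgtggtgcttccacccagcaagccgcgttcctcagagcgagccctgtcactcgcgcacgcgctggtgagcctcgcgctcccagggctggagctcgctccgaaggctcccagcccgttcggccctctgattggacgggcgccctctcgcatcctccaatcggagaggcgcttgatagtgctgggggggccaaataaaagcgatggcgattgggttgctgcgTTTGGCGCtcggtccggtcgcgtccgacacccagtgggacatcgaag
Suz12: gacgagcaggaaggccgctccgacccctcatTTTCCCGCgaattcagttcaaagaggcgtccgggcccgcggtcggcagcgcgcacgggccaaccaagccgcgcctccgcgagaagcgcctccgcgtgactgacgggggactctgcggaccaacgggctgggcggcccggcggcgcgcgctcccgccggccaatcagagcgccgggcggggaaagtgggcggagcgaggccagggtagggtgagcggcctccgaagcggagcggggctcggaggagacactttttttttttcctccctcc
Across the 64 genes with a promoter window, 6 held a match in at least 1 window (9.38%), against 2.61% of all genes with a window. Among detected genes 5 of 55 held one (9.09%), against 5.23% of all named genes above background. Of the listed partner genes with a window 7.69% held one, and of those above background 5.80%. The 6 were Dnmt1, Ezh2, Kat2a, Suz12, Uhrf1 and Sirt4, of which Sirt4 was not above background. Every form of the motif holds a CG. A CG-rich window, as defined below, was found for 85.9% of the 64 genes and 36.0% of all genes with a window. The 64 genes had 89 windows, and all 27025 genes had 32851. What these differences add to the shares was not tested.

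Enzymes for lysine 9 of histone H3, the mark of heterochromatin, were above background for 4 of 5 genes. Ehmt1 and Ehmt2 encode the partner enzymes GLP and G9a, which add the dimethyl mark. Ehmt1 read 558 on set 1 and 513 on set 2. Ehmt2 read 683 on set 1 and 645 on set 2, and its second probe set 98.3 on set 1 and 117 on set 2. Setdb1, which silences retroviral elements with Trim28, read 244 on set 1 and 245 on set 2, with all 3 probe sets above background, and Setdb2 read 116 on set 1 and 129 on set 2. Suv39h2, an enzyme of the trimethyl mark at centromeres, was not above background with any of 3 probe sets, the brightest at 18.9 on set 1 and 15.7 on set 2. Its sister gene Suv39h1 was not analysed here.

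The SET domain methyltransferases of the Kmt2 and Setd families were above background for 12 of 13 genes. All 5 Kmt2 genes, the MLL family that methylates lysine 4 of histone H3, were detected. Kmt2a, the founding MLL gene, read 976 on set 1 and 933 on set 2. Kmt2c and Kmt2d, which mark enhancers, read 765 on set 1 and 725 on set 2 and 263 on set 1 and 269 on set 2. The other probe set of Kmt2d was not above background, at 6.7 on set 1 and 11.4 on set 2. Kmt2e, whose product is thought to have little enzyme activity, read 1059 on set 1 and 1076 on set 2, and 5 of its 6 probe sets were above background. Of the Setd genes, Setd2, the enzyme of lysine 36 trimethylation on transcribed genes, read 357 on set 1 and 305 on set 2. Setd7, a monomethyltransferase with many targets besides histones, read 773 on set 1 and 752 on set 2 on 1 probe set and 48.5 on set 1 and 55.3 on set 2 on the other, which was not above background. Setd3, which methylates actin, read 347 on set 1 and 336 on set 2. Setd4 missed the call by a narrow margin. Its brightest probe set read 94.9 on set 1 and 55.2 on set 2, just under the bound of set 2, and another of its 3 probe sets passed on set 2 alone. Dot1l, the enzyme of lysine 79 of histone H3, read 207 on set 1 and 169 on set 2, and both its probe sets were above background.

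The lysine demethylases were above background for 15 of 17 genes. Kdm1a, the flavin-dependent enzyme LSD1, read 401 on set 1 and 434 on set 2, and its relative Kdm1b read 99.7 on set 1 and 119 on set 2. The other demethylases belong to the Jumonji type, which needs iron and oxoglutarate. Kdm2b, which binds unmethylated CG-rich DNA and brings a Polycomb complex to it, read 942 on set 1 and 1054 on set 2. Kdm3a, which acts on lysine 9 and is known as a hypoxia-induced gene, read 807 on set 1 and 753 on set 2. Kdm5b, of the lysine 4 group, read 647 on set 1 and 647 on set 2, and 3 of its 4 probe sets were above background. Of the lysine 27 demethylases, Kdm6a read 359 on set 1 and 286 on set 2, and Kdm6b, an inducible enzyme known from inflammatory responses, read 123 on set 1 and 126 on set 2. Both arrays placed Kdm6a and Kdm6b above the bound, but for Kdm6b this rested on 1 of 3 probe sets. In the Kdm4 group Kdm4a read 206 on set 1 and 177 on set 2, while Kdm4b and Kdm4c stayed under 100 on both arrays. Kdm4d, known mainly from testis, and Kdm8 were not above background, at 40 on set 1 and 48.4 on set 2 and at 40.4 on set 1 and 47.6 on set 2, each on 1 probe set.

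All 10 acetyltransferase genes were above background. Ep300 and Crebbp encode p300 and CBP, the coactivators that acetylate enhancers. Ep300 read 505 on set 1 and 423 on set 2, and Crebbp 483 on set 1 and 451 on set 2 with 3 of 4 probe sets above background. Kat2b (PCAF) read 428 on set 1 and 474 on set 2 and its relative Kat2a (GCN5) 169.5 on set 1 and 202 on set 2. Of the MYST family, Kat7, which acts at replication origins, read 544 on set 1 and 503 on set 2, and Kat5 (Tip60), which also acts in DNA repair, read 338 on set 1 and 277 on set 2. Kat6a (MOZ) read 356 on set 1 and 567 on set 2, a gap that is taken up below, and 1 of its 3 probe sets was above background. Kat6b, Kat8 and Kat14 lay between 105 and 177 on both arrays. The call of Kat8, like that of Hdac3, rested on a probe set of the _s_at kind, which can bind transcripts of more than 1 gene. The brightest probe sets of Hdac2, Kat14, Kat2b, Kdm1a, Kdm2b, Sirt5 and Suz12 are also of this kind, but each gene has another above background. For Kat2b that other probe set read 156 on set 1 and 180 on set 2.

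The zinc-dependent deacetylases were above background for 10 of 11 genes. In class I all 4 genes were, namely Hdac1 and Hdac2, of the Sin3 and NuRD corepressor complexes, Hdac3, of the NCoR complex, and Hdac8. Hdac1 read 764 on set 1 and 803 on set 2, Hdac2 323 on set 1 and 338 on set 2 and Hdac3 259 on set 1 and 292 on set 2. In class IIa, whose members shuttle between nucleus and cytoplasm on signals such as those of the T cell receptor, 3 of 4 were. Hdac7, which is prominent in thymocytes, read 774 on set 1 and 783 on set 2, and its other probe set 545 on set 1 and 518 on set 2. The brightest probe sets of Hdac4 and Hdac5 read between 106 and 153. Hdac9 was the exception, with neither of 2 probe sets above background and the brightest at 34.7 on set 1 and 13.8 on set 2. Hdac6, a deacetylase of tubulin, read 62.4 on set 1 and 93.1 on set 2, and Hdac8 58.5 on set 1 and 80.9 on set 2, both little above the bound on set 1. The promoter windows of Hdac7 and Hdac9 lie near the ends of the CG counts in this class, which did not follow detection gene by gene, since Hdac8 was detected and its window holds 6. The window of Hdac7 with the most CG, at chr15:97831718-97832017 on the minus strand, holds 35, and that of Hdac9, at chr12:34528840-34529139 on the minus strand, holds 3, with CG in capitals.
Hdac7: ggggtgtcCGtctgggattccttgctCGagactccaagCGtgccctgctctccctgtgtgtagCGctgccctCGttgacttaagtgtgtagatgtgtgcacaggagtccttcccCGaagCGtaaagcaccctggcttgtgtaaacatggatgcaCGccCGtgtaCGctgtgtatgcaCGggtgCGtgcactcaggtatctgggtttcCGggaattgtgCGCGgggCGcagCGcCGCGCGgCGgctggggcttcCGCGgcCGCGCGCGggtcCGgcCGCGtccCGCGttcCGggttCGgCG
Hdac9: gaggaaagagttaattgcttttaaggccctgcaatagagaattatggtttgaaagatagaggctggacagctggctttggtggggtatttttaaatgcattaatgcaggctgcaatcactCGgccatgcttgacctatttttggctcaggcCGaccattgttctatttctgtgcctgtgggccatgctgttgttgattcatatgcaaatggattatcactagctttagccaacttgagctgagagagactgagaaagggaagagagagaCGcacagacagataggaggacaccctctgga

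Of the 7 sirtuins, deacylases that use NAD and so tie acetylation to metabolism, 6 were above background. Sirt7, of the nucleolus, read 789.8 on set 1 and 730 on set 2. Sirt2, mostly of the cytoplasm, read 450.1 on set 1 and 448 on set 2, and Sirt1, the nuclear enzyme, 188 on set 1 and 230.1 on set 2. The mitochondrial Sirt3 and Sirt5 and the nuclear Sirt6 were close to background, with values from 70.3 to 115. Sirt4, also mitochondrial, was not above background at 22.9 on set 1 and 25.6 on set 2 on its 1 probe set.

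**Figure D2:**
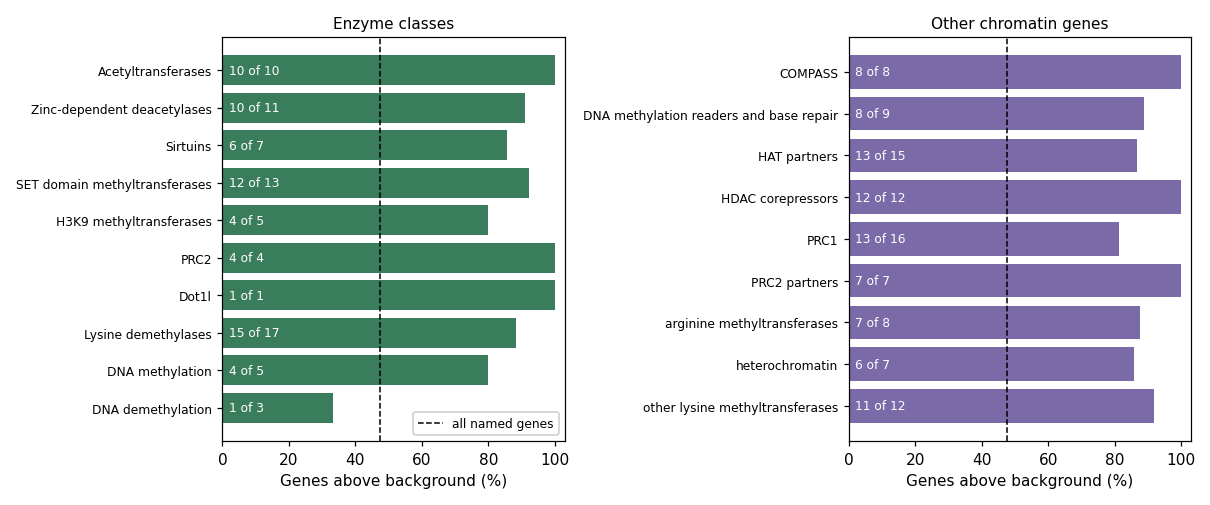
Percentage of genes above background in each of the 10 enzyme classes (left) and in each of 9 groups of other chromatin genes (right), with the count in each bar and the 47.5% of all named genes as a dashed line. Every bar passes the line except DNA demethylation, the Tet genes, with 1 of 3.

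How far a call stood above the bound varied widely. No like share of all named genes is given for the counts that follow, so they cannot be called particular to these genes. In 12 of the 67 detected genes the brightest probe set was at least 10 times the bound on both arrays. These were Ehmt2, Ezh2, Hdac1, Hdac7, Kdm2b, Kdm3a, Kdm5b, Kmt2a, Kmt2c, Kmt2e, Setd7 and Sirt7. Kdm2b is listed through an _s_at probe set, and its other probe set was dimmer, at 477 on set 1 and 516 on set 2. In another 12 it was under 2 times the bound on at least 1 array, namely Hdac4, Hdac6, Hdac8, Hdac10, Kat14, Kdm1b, Kdm4b, Kdm4c, Setd6, Sirt3, Sirt5 and Sirt6. The calls of these dim genes are weak, because 9 of 36 genes (25.0%) of a second list of genes from other organs also exceeded the bound, and the 95th percentile of that list was 107 on set 1 and 117 on set 2. Of the 9 genes not above background, 5 had their brightest probe set under 0.5 times the bound on at least 1 array: Dnmt3l, Hdac9, Sirt4, Suv39h2 and Tet3.

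Probe sets of a single gene often disagreed. Of the 50 genes with more than 1 probe set, 16 had every probe set above background, 30 had only some and 4 had none. The same split over all named genes is not given, so it cannot be called particular to these genes. Kdm5c, a lysine 4 demethylase on the X chromosome, had the most probe sets, and 6 of 9 were above background. Kdm2a had 4 of 7, Suz12 and Kdm5a 3 and 4 of 6, Kmt2e 5 of 6 and Kdm7a 3 of 5. Eed, Hdac10, Hdac11, Kdm3b, Kdm4a, Kmt2d and Setd1a were each called on 1 of 2 probe sets. Kat6b and Setd6 were called on 1 of 3. In Suz12 the detected probe sets read from 368 to 608 and the others at most 70.2. Of the 63 probe sets not above background, 12 passed on 1 array, 5 on set 1 and 7 on set 2, and 51 on neither. No like share of all probe sets is given, so these counts are not a result about these genes.

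**Figure D3:**
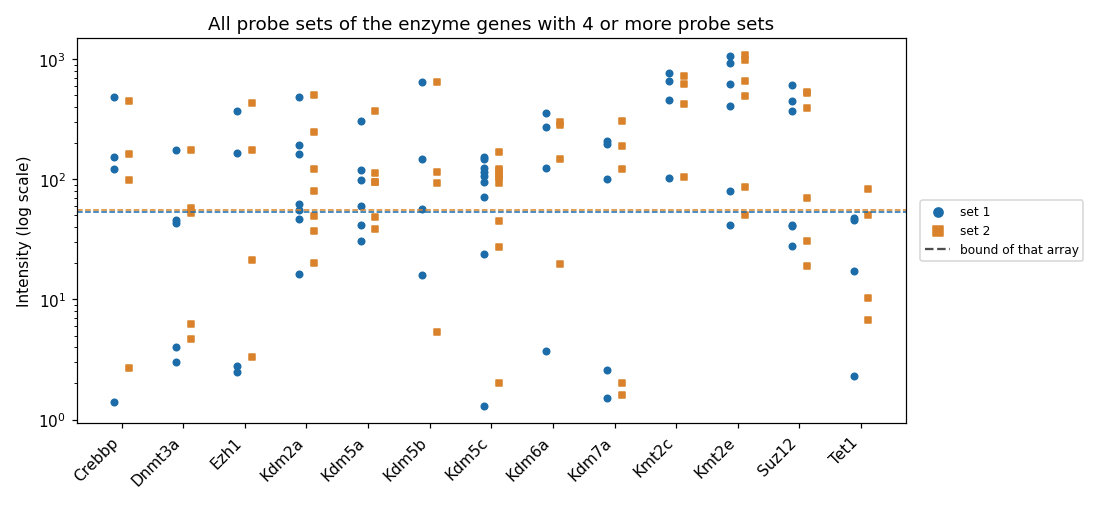
Intensity (log scale) of every probe set of the genes with 4 or more probe sets, with set 1 as circles and set 2 as squares, and the bound of each array as dashed lines. Most genes have probe sets on both sides of the bounds, Kmt2c has all 4 above, and Tet1 has none above on both arrays.

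Other genes of histone and DNA modification were detected at a like rate. Of 102 listed partner genes 94 were measured, and 85 of these (90.4%) were above background, against the 47.5% of all named genes. The partner list too was chosen with earlier results of these data known. All 7 partners of Polycomb repressive complex 2 were, among them Rbbp4, a histone-binding subunit, at 1404 on set 1 and 1667 on set 2. All 12 corepressor genes that work with the deacetylases were, with Tbl1xr1 at 1030.1 on set 1 and 1007 on set 2, and so were all 8 genes of the COMPASS complexes, the partners of the Kmt2 enzymes. Trim28, the partner of Setdb1, read 1598 on set 1 and 1526 on set 2, and Nsd3, a methyltransferase of lysine 36, 1426 on set 1 and 1324 on set 2. Of 8 arginine methyltransferases 7 were above background, Prmt5, which makes symmetric dimethylarginine, at 727 on set 1 and 731 on set 2. The levels of Rbbp4, Tbl1xr1, Trim28 and Prmt5 come from _s_at or _x_at probe sets, which can bind transcripts of more than 1 gene. The dimmer probe set of Trim28 had a mean of 664. The 9 partner genes not above background were Brpf3, Cbx3, Cbx8, Gadd45a, Ing4, Pcgf2, Phc1, Prmt8 and Smyd4. Of these, Cbx3, Gadd45a, Ing4, Phc1 and Prmt8 were each measured by 1 probe set, that of Cbx3 reading 32 on set 1 and 33.4 on set 2. A missing call on 1 probe set does not show that the transcript was absent.

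Promoter composition was described for the 64 of 76 genes that had a window. A window was called CG-rich when at least 50% of its bases were G or C and its CG count was at least 0.6 of that given by its C and G content. At least 1 CG-rich window was found for 49 of 55 detected genes (89.1%) and for 6 of 9 genes not above background (66.7%). Among all named genes the shares were 77.1% of those above background and 38.0% of those not. The highest CG count per gene had a median of 29 in the detected genes and 17 in the genes not above background, and the values overlapped. Over all named genes the medians were 23 above background and 10 not above, so such a gap is not particular to these genes. Kdm7a had the most, 65, and the detected Setd5 had the fewest of all 64 genes, 1. Suv39h2, with 33, was not above background.

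**Figure D4:**
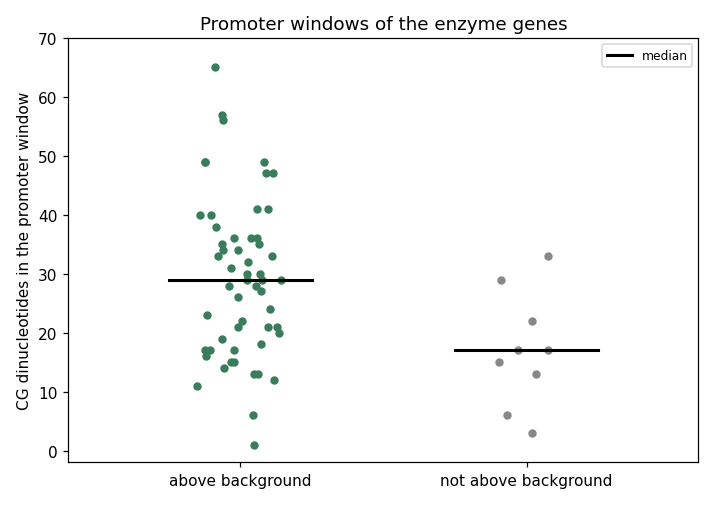
Highest number of CG dinucleotides in a promoter window of 300 bases, for 55 detected genes (left) and 9 genes not above background (right), with medians of 29 and 17 as bars. The ranges overlap, with Setd5, at 1, the lowest on the left and Hdac9 and Dnmt3l, at 3 and 6, the lowest on the right. Over all named genes, not drawn here, the medians were 23 and 10.

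The 2 arrays gave similar values for these genes. The difference was taken on the log2 scale as set 1 minus set 2 and centred on its median over the 17166 probe sets above background. Over the 121 probe sets above background the SD of the difference was 0.24 and the median absolute difference 0.14, against 0.24 and 0.13 over all probe sets above background. The SD narrowed with intensity, from 0.26 for the 21 probe sets with a mean under 100 to 0.17 for the 35 with a mean of 400 or more. The difference was above 0 in 53 (43.8%) and below 0 in 68, with a median of -0.05. Over all probe sets above background it was above 0 in 50.0%, which the centring fixes. More than 1.5-fold apart were 3 of 121 (2.48%), where 2.85% of all probe sets above background were, and none was more than 2-fold apart, where 0.210% were. The count is thus near that of all probe sets.

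All 3 were lower on set 1, where 1.97% of all probe sets above background were lower by that much, and 0 were higher, where 0.885% were. The Kat6a probe set read 356 on set 1 and 567 on set 2, a log2 difference of -0.65, and it is the only 1 of its 3 probe sets above background. A Kdm5b probe set read 56.9 on set 1 and 93.1 on set 2, a difference of -0.68, while the brightest probe set of Kdm5b read 647 on set 1 and 647 on set 2. A Kdm5a probe set read 59.9 on set 1 and 94.3 on set 2, a difference of -0.63, and the brightest of Kdm5a read 305 on set 1 and 369 on set 2, a difference of -0.25. The sirtuins had the lowest median of the classes, -0.27 over 7 probe sets, of which 5 were lower on set 1. The class is named here because its median was the lowest. Its probe sets of Sirt3, Sirt5 and Sirt6 above background had means under 100, where the SD was 0.26. With 2 arrays no difference between them could be tested.

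**Figure D5:**
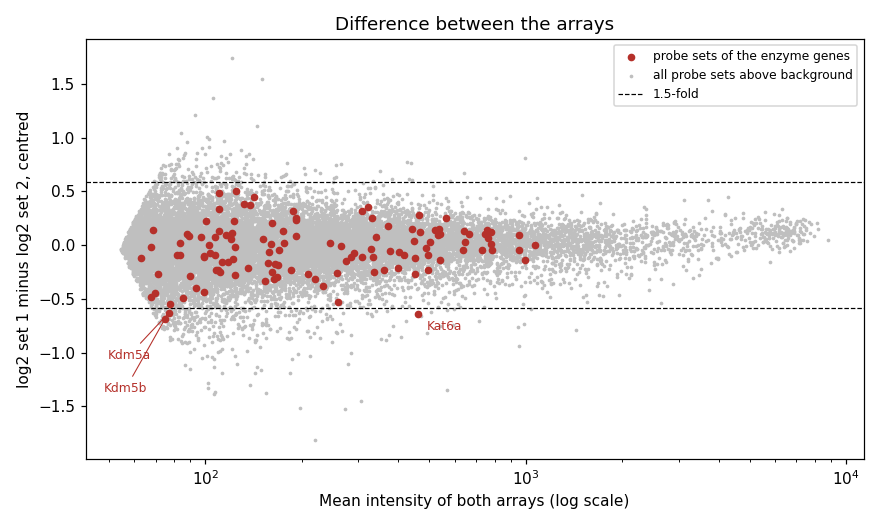
Difference between the arrays (log2 set 1 minus log2 set 2, centred) against the mean intensity (log scale), for probe sets of the enzyme genes (red) over all probe sets above background (grey), with dashed lines at 1.5-fold. The 121 red points lie within the grey cloud, and the 3 below the lower line belong to Kat6a, Kdm5a and Kdm5b.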

How the data were processed

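The authors deposited 1 intensity value per probe set and array, on a linear scale as read from the values, which ran up to 8860.2. The background correction, probe summary and scaling behind them are not stated in any label or header used here, and whether the arrays were scaled to a common target is unknown. Their medians were 36.4 on set 1 and 37.9 on set 2.

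Of 45101 probe sets, 64 manufacturer controls were left out. GEO's platform annotation gave 1 symbol to 34958, several to 932 and none to 9211. RefSeq (GRCm38.p6) matched 34754 by Entrez identifier and changed 0 symbols. Intensities under 1 were set to 1 before log2. The off-tissue bound, partner groups and markers were fixed gene lists, and of 38 genes of the first off-tissue list 32 were measured. The members and lists were chosen with earlier results of these data known, and the promoter measures were added after the values were seen. Any member could be named, partners when not above background or among the 3 brightest of a group, and probe sets when more than 1.5-fold apart. With 1 group of 2 arrays no test was made, and 2 arrays limit the precision of every value. Alternatives changed the bound, the arrays used, the probe sets used, the rule for a gene's call, the centring and the floor. Python 3.11.15, numpy 2.4.6, pandas 2.3.3 and matplotlib 3.10.9 were used.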

Additional observations from a re-analysis of the deposited data

How the results depend on the processing

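The count of genes above background was 67 and ranged from 55 to 71 over 7 alternatives, and 51 genes were called under every alternative that measured them. With the bound from the second off-tissue list 12 genes lost the call, which left 6 of 11 zinc-dependent deacetylases and 3 of 7 sirtuins, where 34.3% of all named genes were above that bound. A lower bound, taken as the 90th percentile of the list or as the array median, placed 2 of 3 Tet genes above background, where 52.0% and 55.4% of all named genes were, and single arrays placed 1 to 2. Called by the median of their probe sets, Dnmt3a, Hdac10, Kat6a, Kat6b, Kdm6b and Setd6 were not above background. Without the _s_at and _x_at probe sets Dnmt3l, Hdac3 and Kat8 had no value, and no other gene lost its call. Dnmt3l, Hdac9, Sirt4, Suv39h2 and Tet3 were never called. The 3 probe sets more than 1.5-fold apart became 31 without a filter on low values, where the SD was 0.64, 14 with a floor of 16, 7 with a filter on the mean and 0 at 2-fold. The higher counts include dimmer probe sets, as the filters are built. No share over all probe sets is given for these settings, so the counts are not a result about these genes. The other counts and the median difference stayed within 1.5 times or 1 SD of their values. Differences have no value with 1 array left out. No paired analysis was possible because there is 1 group.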

Other observations

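Some further values concern probe sets that passed the bound on 1 array alone or lay far apart on the 2 arrays. A Kdm6b probe set read 80.7 on set 1 and 30 on set 2, and a Suz12 probe set read 28.1 on set 1 and 70.2 on set 2. For Kat2b, 1 of 3 probe sets read 34.6 on set 1 and 64.6 on set 2, and the brightest of the gene read 428 on set 1 and 474 on set 2. Among the partner genes, Ing1 encodes a reader of lysine 4 methylation. Its brightest probe set, of the _s_at kind, read 288 on set 1 and 531 on set 2. These probe sets were chosen after their values were seen.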
